A study of Mus musculus with 816 samples.

Results

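Interleukin-4 (IL4) was given alone for 24 h to 11 cultures of primary mouse microglia, out of 784 cultures in a panel of stimuli. The 11 cultures were selected by their treatment label (IL4, 0.00005 µg/µl) and duration label (24 h), without use of any measured value. They were compared with the 40 untreated cultures labelled 24 h. The question was which genes differ between microglia that received IL4 for a day and microglia that received nothing. Each culture was a well of a 96-well plate with commercial primary microglia of neonatal mice (Sciencell), to which the stimulus was added 4 days after plating in fresh medium. Untreated wells carried the label None. The cells were grown outside the brain, and the strain and number of mice behind a cell lot are not given in the sources used here. RNA of each well was turned into a barcoded 3′-end library, and wells were amplified and sequenced together in library pools.

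The IL4 wells lay on 3 plates and in 4 pools, and came from 2 cell lots. Plate MG160831 held 6 of them and plate MG160901 held 3, both of the lot labelled Sciencell_March15, and plate MGm160926A held 2, of the lot Sciencell_Feb15. Of the untreated wells, 18 shared these plates and 22 were on 3 other plates, 8 of them of the lot Sciencell_May16, which no IL4 well at 24 h had. Well position was not balanced: 3 IL4 wells and 10 untreated wells were outer wells, and in a pool of plate MG160831 as well as on plate MG160901 all IL4 wells were inner wells and all untreated wells outer ones. Other comparisons used 9 cultures with interleukin-13 (IL13) at the same labelled dose and time, 3 on each of the same plates, and 3 cultures with IL4 for 72 h beside 25 untreated cultures at 72 h. The wells of a group are separate cultures of few cell lots, and plate was a factor in each main fit. A p-value here therefore measures the spread among wells within plates, not between plates or animals. Depth was 3.41 to 10.2 M mapped reads in the IL4 cultures and 1.09 to 14.99 M in the untreated ones. In 4 untreated wells of pool MGm160926A2 the 10 highest genes took 35.05% or more of all reads, against 15.5% to 28.3% in the other 36 untreated wells and 14.2% to 24.5% with IL4. The 10 marker genes of microglia and macrophages summed to between 8600 and 13541 CPM (counts of a gene scaled to the mapped reads of the well) with IL4 and to between 9290 and 16220 CPM in untreated cultures. None of the 10 was called changed, although Aif1, the calcium-binding protein Iba1, was lower by 0.91 on the log2 scale (19.8 to 37.9 CPM against 30.4 to 140 CPM, adjusted p = 1.51e-05), under the size required. At the same time the 12 markers of granulocytes and mast cells summed to at most 4.02 and 9.18 CPM. Markers of endothelium summed to between 105 and 183 CPM with IL4 and to between 33.3 and 192 CPM without, and those of the oligodendrocyte lineage to between 41.9 and 143 and between 36.7 and 126 CPM. The sums were 11.3 to 49.6 against 7.27 to 44.3 CPM for astrocytes, 0 to 8.71 against 0 to 35.7 CPM for neurons and 45.4 to 94.2 against 4.42 to 170 CPM for lymphocytes. Listed at 0 in all 51 cultures were 3 of the 10 endothelial, 2 of the 10 oligodendrocyte and 2 of the 10 neuronal markers. Cldn5, Mog, Olig2 and Slc17a7 were among these. Other members were expressed, and 4, 4 and 2 of the 10 passed the filter on low values and were tested.

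IL4 is a cytokine of type 2 immunity. It binds the IL4 receptor alpha chain, which pairs with the common gamma chain or with the IL13 receptor chain Il13ra1, and the Janus kinases bound to these chains phosphorylate the transcription factor STAT6. In macrophages and microglia STAT6 induces a set of genes known as alternative activation, among them arginase 1, resistin-like and chitinase-like proteins and C-type lectins, while SOCS proteins limit the signal. IL13 uses the pair of IL4 receptor alpha and Il13ra1, and therefore shares part of this receptor.

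At 24 h, 159 of 11577 genes tested were higher with IL4, which is 1.37% of them, and 65 were lower, which is 0.561%. A gene was called changed with an adjusted p under 0.05 (limma on log2(CPM + 1) with plate as a factor, Benjamini-Hochberg adjustment over all genes tested) and a log2 fold change of at least 1 in size. The largest changes were rises: Retnla, Arg1, Mgl2, Tmem26, Cldn11 and Rnase2a each rose by more than 5 on the log2 scale, while the largest fall, that of Cx3cr1, was 2.05. Of the 159 genes called higher, 153 were higher with IL4 in each of the 4 pools that held both groups, and 63 by at least 1 in each. Of the 65 called lower, 63 were lower in each pool, and 15 by at least 1 in each. The calls were made on these same wells, which by itself favours the same direction in each pool. The share over all genes tested is not given here. In 24 of the genes called higher every IL4 culture exceeded every untreated culture, a separation found in 0.216% of all genes tested, and in 2 of those called lower every IL4 culture was below every untreated one (0.0259% of all genes tested). All changes are relative to total mapped RNA: in bulk cultures fewer cells that use a gene and less of its RNA per cell cannot be told apart. The median log2 fold change over all genes tested was 0.03. Without the plate term 416 genes were called higher and 131 lower, and by an exact 2-sided rank-sum test within plates with Bonferroni correction 71 and 17.

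**Figure D1:**
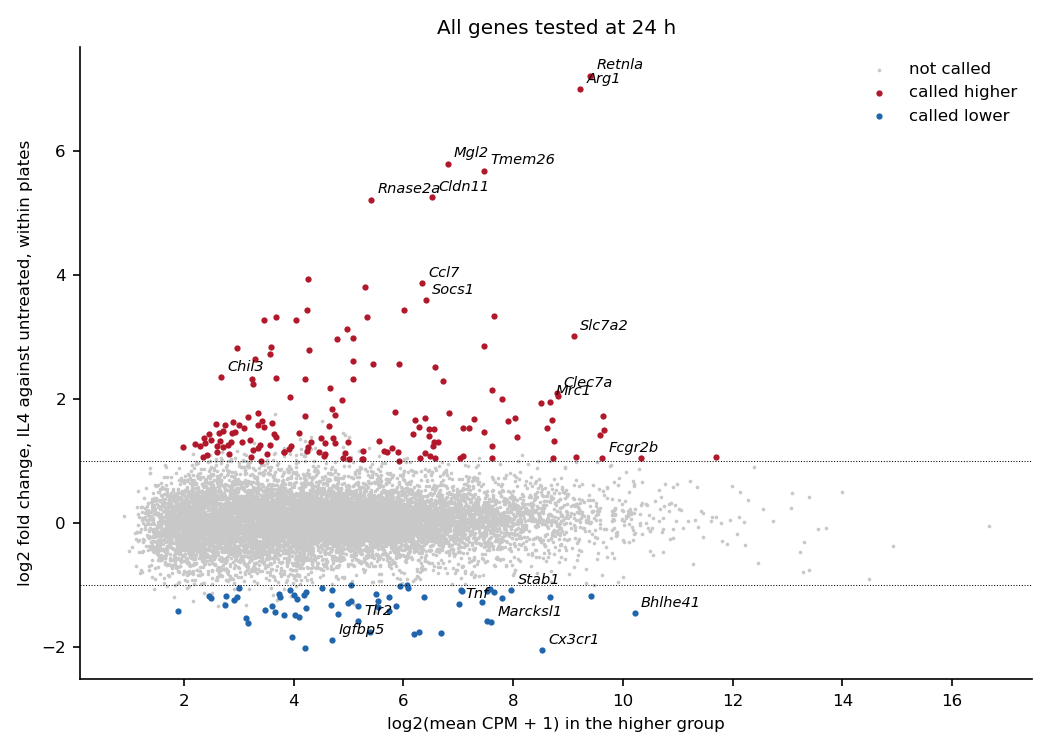
Log2 fold change of IL4 against untreated cultures at 24 h, fitted within plates, for all 11577 genes tested, against the log2 mean CPM in the higher group. Red points are the 159 genes called higher and blue points the 65 called lower; dotted lines mark a log2 fold change of 1 in either direction, and the 6 genes above 5 stand clear of the others.

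Retnla encodes resistin-like alpha, a secreted protein of type 2 responses. Its level with IL4 was between 215 and 1173 CPM with a median of 575. In untreated wells it was at most 11.1 CPM, and 26 of the 40 were listed at 0. The groups did not overlap, and the log2 fold change within plates was 7.21 ± 0.32 (SE, adjusted p = 5.57e-26). Arg1 encodes arginase 1, which splits arginine into ornithine and urea. It was between 316 and 1050 CPM with IL4, with a median of 587, and between 0 and 7.33 CPM in untreated wells, again without overlap (log2 fold change 6.995 ± 0.28, adjusted p = 1.64e-27).

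The low Retnla values of untreated wells went with the library pool. All 14 untreated wells that shared a pool with IL4 wells had Retnla above 0, with a median of 4.48 CPM, whereas all 26 untreated wells of the 6 pools without IL4 wells were listed at 0, including the 4 of pool MGm160926A2 on the same plate as IL4 wells. The same held for the other stimuli at 24 h, with IL13 left out: 188 of 191 wells in the pools of IL4 wells had Retnla above 0, at up to 21.2 CPM, against 3 of 163 wells in other pools, at up to 0.416 CPM. Another 4 wells, with valproic acid, lay on the plate of the IL4 72 h cultures and had between 3.51 and 27.8 CPM. Cldn11 and Rnase2a showed the same division at lower levels. Each was above 0 in some of the 14 untreated wells in pools with IL4 wells, in 6 for Cldn11 and in 5 for Rnase2a, and in none of the 26 others. Arg1 and Mgl2 differed in the same direction but less sharply. The untreated median of Arg1 was 3.83 CPM in pools with IL4 wells and 0.669 CPM in the others. Mgl2 was above 0 in 12 of the 14 and in 10 of the 26 untreated wells. The part of the pool in these low values was not tested.

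Mgl2 encodes a macrophage galactose-type lectin (GRCm38 chromosome 11, 70130329 to 70137550). It lay between 17.5 and 207 CPM with IL4, with a median of 103, and at no more than 2.18 CPM in untreated wells (log2 fold change 5.80 ± 0.27). Tmem26, a transmembrane protein gene on chromosome 10, stood at 75.2 to 241 CPM with a median of 186, against 0 to 17.9 CPM (5.68 ± 0.44). Neither gene overlapped between the groups. Cldn11 encodes a tight junction claudin best known from myelin (chromosome 3, 31149920 to 31164324). It was the most uneven of the strong responders: its IL4 median was 174 CPM in the first pool of plate MG160831 and 31.2 CPM in the second, 100.1 CPM on plate MG160901, and 2.59 and 29.4 CPM in the IL4 wells of plate MGm160926A. Even so each IL4 well exceeded the highest untreated value of 1.14 CPM (5.26 ± 0.33). Rnase2a, a member of the eosinophil-associated ribonucleases (chromosome 14, 51255262 to 51256112), was between 14 and 79.6 CPM with IL4 and at most 0.852 CPM without it (5.22 ± 0.20). Family members of Rnase2a are near-identical in sequence, so reads may be shared among them and its level is uncertain to that extent.

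**Figure D2:**
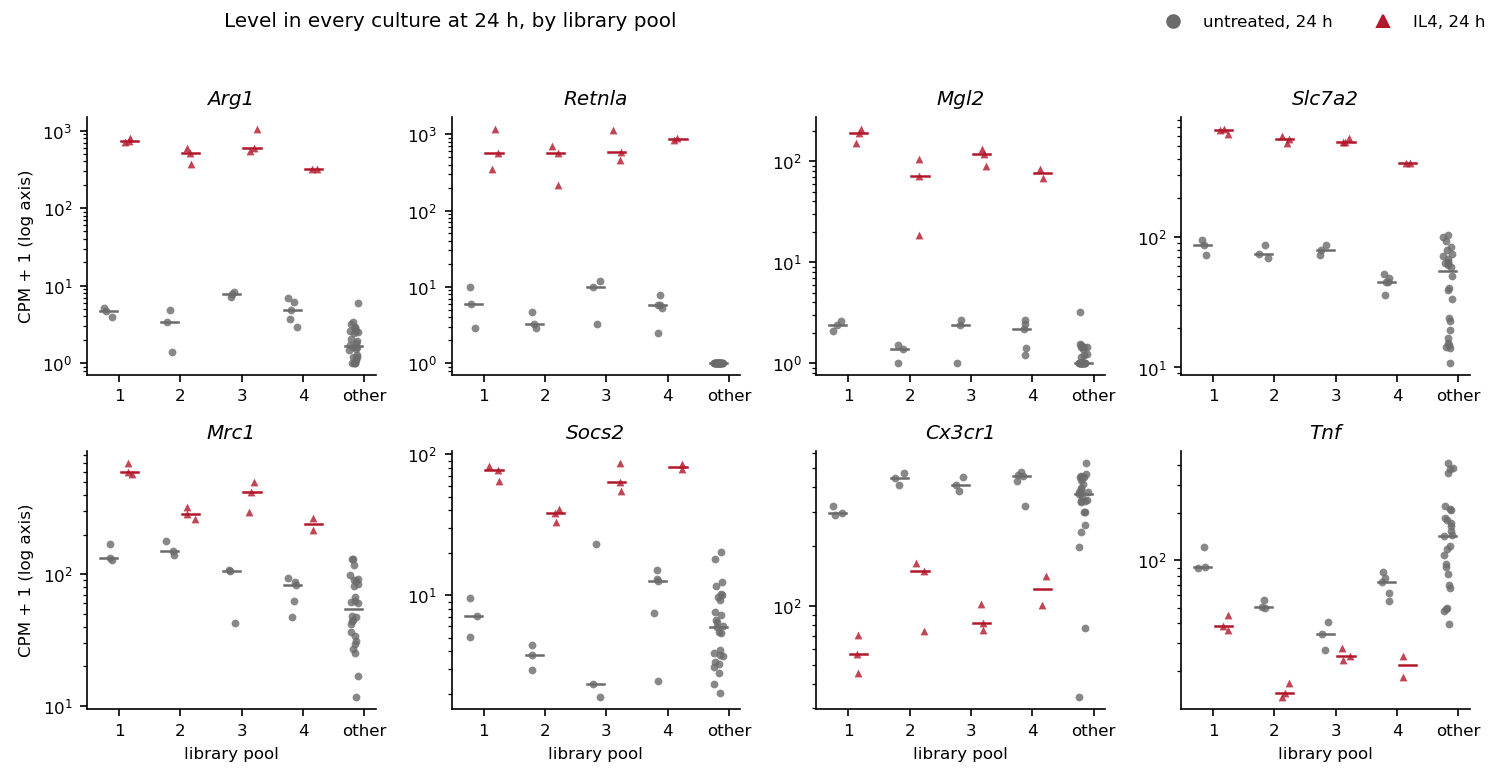
CPM + 1 on a log axis of 8 genes in each 24 h culture, by library pool: 1 and 2 are the pools of plate MG160831, 3 is plate MG160901, 4 is the pool of plate MGm160926A that held IL4 wells, and other groups the remaining 26 untreated wells. Red triangles are IL4 cultures, grey circles untreated ones and bars medians; Arg1, Retnla, Mgl2, Slc7a2, Mrc1 and Socs2 are higher with IL4 in each pool, and Cx3cr1 and Tnf are lower.

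Promoter sequences of 4 genes called higher are shown, because a STAT6-type palindrome occurs in them. The letters searched were TTCNNNNGAA, which read the same on both strands, in the 250 bases before and 50 bases after each start in the RefSeq promoter table (GRCm38.p6). Capitals mark the matches, each sequence is on the strand of the gene, and the stretch printed ends before the start.
Retnla, chr16:48842404-48842533, plus strand: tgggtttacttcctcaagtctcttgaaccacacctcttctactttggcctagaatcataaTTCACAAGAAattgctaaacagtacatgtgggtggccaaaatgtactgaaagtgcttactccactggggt
Tmem26, chr10:68723496-68723588, plus strand: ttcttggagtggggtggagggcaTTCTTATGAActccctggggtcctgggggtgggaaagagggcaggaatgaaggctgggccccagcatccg
Clec7a, chr6:129472841-129472970, minus strand: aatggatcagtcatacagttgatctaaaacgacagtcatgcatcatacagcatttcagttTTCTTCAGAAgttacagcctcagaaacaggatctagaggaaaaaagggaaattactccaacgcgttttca
Plekhf1, chr7:38228044-38228173, minus strand: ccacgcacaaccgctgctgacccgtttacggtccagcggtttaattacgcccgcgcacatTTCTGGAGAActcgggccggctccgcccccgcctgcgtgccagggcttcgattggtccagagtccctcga
The match begins 145 bases before the start in Retnla, 131 in Clec7a and 119 in Plekhf1, and Tmem26 has 2 matches, at 227 and 41 bases, of which the farther is printed. Of 142 promoters of genes called higher 10 (7.04%) had a match, in 9 of the 112 genes with a promoter in the table. A match was in 1 of 57 promoters (1.75%) of genes called lower and in 6.94% of all 32817 promoters. The share among risen genes was thus close to that of all promoters, and the palindrome with a spacer of 3 (TTCNNNGAA) was in 8 of the 142 (5.63%) and in 8.29% of all promoters. A match in these windows is a description of the letters and says nothing about binding of the factor.

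The genes of the IL4 receptor and its kinases changed little, while feedback inhibitors rose. Of 20 genes on the list of IL4 receptor and signalling, 17 were tested, 4 were called higher and none lower, with a median log2 fold change of 0.12. Socs1, an inhibitor of Janus kinases, was at 42.0 to 135 CPM with IL4 (median 91.5) and at 0.801 to 48.5 CPM in untreated wells (median 8.28), with little overlap (log2 fold change 3.60 ± 0.28). Socs2 was at 32.4 to 85.7 CPM against 0.883 to 22.0 CPM, without overlap (3.44 ± 0.34). Cish, a further SOCS-family inhibitor and STAT target, was low but also without overlap, at 2.15 to 26.1 CPM against at most 1.93 CPM (3.27 ± 0.26), and 28 untreated wells were listed at 0. Jak2 had a log2 fold change of 1.15 ± 0.19 with wide overlap (37.4 to 119 CPM against 12.9 to 115 CPM), and its call was lost in 4 of 29 alternative fits, which gave values between 0.54 and 1.68. Il4ra, the ligand-binding chain, was at 7.51 to 17.5 CPM with IL4 against 3.93 to 54.3 CPM, and its log2 fold change of -0.54 ± 0.21 did not pass (adjusted p = 0.15). Stat6 lay at 229 to 496 CPM with IL4 and 221 to 657 CPM without it, with a log2 fold change of -0.19 ± 0.16 (adjusted p = 0.63).

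Of the transcription factors of alternative activation, 8 of 19 tested were called higher and 1 lower, with a median log2 fold change of 0.61. Nfil3, a basic leucine zipper factor, stood at 22.3 to 51.1 CPM with IL4 and at most 21.7 CPM without (2.98 ± 0.39). Batf3, an AP-1 family factor best known from dendritic cells, was at 9.10 to 35.7 CPM against at most 9.11 CPM, so that the lowest IL4 well met the highest untreated one (2.97 ± 0.31). Irf4, a STAT6-induced factor of type 2 macrophages, was at 2.74 to 20.7 CPM against at most 4.24 CPM (2.73 ± 0.30), and Klf4, which acts with STAT6 in macrophages, was at 15.1 to 54.4 CPM against at most 10.4 CPM (2.32 ± 0.30). Pparg, the nuclear receptor tied to fatty acid use in type 2 macrophages, had a median of 42.5 CPM with IL4 and 17.6 CPM without. Its log2 fold change of 0.95 ± 0.34 did not pass (adjusted p = 0.097). The 1 factor called lower was Bhlhe41, a repressor expressed in microglia, at 179 to 628 CPM with IL4 and 70.7 to 4601 CPM without (-1.45 ± 0.27, adjusted p = 0.000127).

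Of 30 markers of alternative activation, 21 were tested and 16 of those were called higher, none lower, with a median log2 fold change of 2.10. This list was built from genes known for the response. Some members, such as Chil3 and Rnase2a, passed the filter on low values only through IL4 wells, which by itself favours a call higher. Mrc1, the mannose receptor, was at 214 to 699 CPM with IL4, above each untreated well (10.6 to 179 CPM), with a log2 fold change of 1.96 ± 0.24. Clec7a, the beta-glucan receptor dectin-1, was at 304 to 544 CPM against 32.4 to 318 CPM (2.10 ± 0.13, adjusted p = 5.19e-19), with the smallest SE of these. Clec10a, a galactose-type lectin beside Mgl2, was at 4.60 to 48.1 CPM against at most 7.33 CPM (3.13 ± 0.35). Flt1, a receptor of vascular endothelial growth factor that sits on both this list and that of endothelium, was at 66.2 to 146 CPM against 5.83 to 75.1 CPM (2.52 ± 0.21). Kdr, another such receptor, fell from a median of 3.57 to 1.88 CPM (-1.17 ± 0.35, adjusted p = 0.034), a call lost in 12 of 28 alternatives. Of the 10 endothelial markers 4 were tested, and 3 were listed at 0 in all cultures.

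Several classic markers of the response were nearly silent at this time. Chil3, the chitinase-like protein Ym1, was listed at 0 in all 40 untreated wells and was between 0 and 9.46 CPM with IL4, with a median of 5.41 (adjusted p = 1.18e-11). Pdcd1lg2, a PD-1 ligand, was above 0 in all 11 IL4 wells, at 0.152 to 9.69 CPM with a median of 3.48. It was listed at 0 in 39 untreated wells and at 0.426 CPM in the other one, and did not pass the filter on low values, so it was not tested. The STAT6-linked chemokines Ccl17, Ccl22 and Ccl24 were also untested, with highest IL4 values of 0, 1.64 and 0.805 CPM and highest untreated values of 0.800, 5.11 and 1.09 CPM. At depths of 3.41 M reads or more a level of 1 CPM rests on few reads, so a difference in these 3 chemokines was not detectable here.

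Of arginine metabolism, the transporter Slc7a2 rose beside Arg1. Of 18 tested genes of arginine and polyamine metabolism only Arg1 and Slc7a2 were called higher, none was called lower, and the median log2 fold change was 0.20. Slc7a2, a transporter that brings arginine into the cell (chromosome 8, 40862396 to 40922308), was at 371 to 678 CPM with IL4 (median 568.1) and at 9.80 to 103 CPM in untreated wells (median 61.2). Its groups stood far apart, and its folds in the 4 pools were close to each other, between 2.79 and 3.05 (log2 fold change 3.01 ± 0.16). Nos2, whose enzyme uses the same substrate to make nitric oxide, was at most 3.62 CPM with IL4 and 22.0 CPM without it (0.03 ± 0.23, adjusted p = 0.97). In the 14 untreated wells that shared a pool with IL4 wells Nos2 was also at most 3.62 CPM. Gm26584, a gene model on the opposite strand that overlaps the start of Slc7a2, also rose, from a median of 4.17 to 137 CPM (3.33 ± 0.40). Gm20681, a model within another one and beside Zc3h18, was at 9.13 to 67.3 CPM against at most 16.2 CPM (3.81 ± 0.41). Reads of overlapping models may be assigned to either, so both values are uncertain.

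Chemokines of the monocyte-attracting group rose while the median of all 17 tested chemokines was -0.11; 5 were called higher and none lower. Ccl7, a ligand of the receptor Ccr2, was at 10.4 to 158 CPM with IL4 (median 68.0) and at most 16.8 CPM without (3.87 ± 0.34). It was uneven by pool, with a log2 difference of 1.51 in the second pool of plate MG160831, where the IL4 wells were outer wells, and 4.02 to 4.88 in the other 3 pools. Ccl2, also a Ccr2 ligand, was at 13.3 to 254 CPM against 0.623 to 70.7 CPM (2.30 ± 0.34), and its direction held in 3 of 4 pools. Ccl9 separated completely, at 109 to 344 CPM against 33.8 to 97.3 CPM (2.00 ± 0.17). Ccl12 was low, at 0 to 15.2 CPM against 0 to 5.90 CPM (1.47 ± 0.37, adjusted p = 0.0068), and its call was lost in 3 of 28 alternatives. Its direction also turned with the pool: the log2 difference was -1.25 in the second pool of plate MG160831 and 1.84 to 2.71 in the other 3. Chemokine receptors moved both ways: of 9 tested, 2 were called higher and 3 lower, with a median of -0.70.

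Cx3cr1, the fractalkine receptor that marks microglia, fell most. It was at 44.5 to 164 CPM with IL4 (median 80.4) and at 33.1 to 529 CPM without (median 380). The overall ranges overlapped through a few low untreated wells, but within each of the 4 pools every IL4 well was below every untreated well, and the log2 fold change was -2.05 ± 0.25 (adjusted p = 1.15e-08). Cxcr4, the receptor of Cxcl12, was at 22.3 to 65.7 CPM against 5.72 to 237 CPM (-1.77 ± 0.21). Cxcr3 was low, with medians of 1.67 and 6.28 CPM (-1.53 ± 0.46, adjusted p = 0.030), and its call was lost in 9 of 29 alternatives. Ccr1, a receptor of Ccl7 and Ccl9 among others, rose from a median of 10.82 to 47.8 CPM (1.16 ± 0.29), a call lost in 3 of 29 alternatives.

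The fall of Cx3cr1 was not a fall of all homeostatic microglial genes. Of 18 tested, 3 were called lower and 1 higher, and the median log2 fold change was -0.24. Gpr34 went from a median of 6.64 to 1.86 CPM (-1.62 ± 0.35) and P2ry13, a purine receptor, from 78.0 to 22.8 CPM (-1.19 ± 0.23), and each call was lost in 2 of 29 alternatives. Fcrls, an Fc receptor-like gene of microglia, was called higher (1.504 ± 0.20), though its ranges were nearly the same, 404 to 1673 CPM with IL4 and 153 to 1692 CPM without, and without the plate term its log2 fold change was 0.63. P2ry12 and Tmem119 were low in all cultures, at most 6.84 and 27.1 CPM with IL4 and 12.8 and 64.7 CPM without, and neither passed (log2 fold changes of -0.29 ± 0.34 and 0.11 ± 0.27). Among genes of disease-associated microglia 3 of 22 were called higher and none lower, with a median of -0.08. Ch25h, which makes 25-hydroxycholesterol, was at 30.6 to 142 CPM against 3.63 to 72.2 CPM (1.55 ± 0.28), while Cst7 was at most 5.28 CPM with IL4 (1.23 ± 0.34, adjusted p = 0.016). The call of Cst7 was lost in 3 of 21 alternatives, inner wells alone among them, and its log2 difference was 0.066 in the second pool of plate MG160831.

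Inflammatory cytokines and genes of the Toll-like receptor and NF-kB pathway held few calls, and those were falls. Of 10 inflammatory cytokines tested, only Tnf was called lower, none was called higher, and the median was -0.47. Tnf was at 12.6 to 43.8 CPM with IL4 and at 26.2 to 410 CPM without (-1.30 ± 0.22, adjusted p = 1.42e-05). The pools differed: on plate MG160901 the IL4 wells were at 22.5 to 26.8 CPM and the untreated wells at 26.2 to 40.03 CPM, while in the second pool of plate MG160831 they were at 12.6 to 15.7 and 49.1 to 55.3 CPM. Il1b was at most 6.62 CPM with IL4 and 65.3 CPM without, with a log2 fold change of -0.72 ± 0.36 that did not pass (adjusted p = 0.31). In the 14 untreated wells that shared a pool with IL4 wells Il1b was at most 7.60 CPM. Of 23 genes of the Toll-like receptor and NF-kB pathway, Tlr2 and Nfkbiz were called lower and none higher. Tlr2, a receptor of bacterial lipoproteins, was at 4.14 to 21.2 CPM against 8.84 to 66.8 CPM (-1.58 ± 0.21), with a similar difference in each pool (-1.82 to -1.49). Nfkbiz, an NF-kB cofactor, was at most 4.11 CPM with IL4 and 14.05 CPM without (-1.17 ± 0.27), and its call was lost in 2 of 29 alternatives. None of the 25 interferon-stimulated genes was called, and their median was 0.04; Ifit1 had a log2 fold change of -0.13 ± 0.15 and Ifit2 of -0.08 ± 0.32. With inner wells alone 3 of the 25 were called, Usp18 and Gbp2 higher (1.23 and 1.13) and Ifitm3 lower (-1.03), and the median was 0.11. These 3 are named to complete the count. On plate MG160831 the inner IL4 wells and the inner untreated wells were in different pools, so IL4 and pool cannot be told apart there.

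Other falls were in genes of several kinds, lectin and scavenger receptors among them. Clec4n and Clec4d, the dectin-2 and Mcl receptors of fungal and mycobacterial glycolipids, had IL4 medians of 12.3 and 70.03 CPM and untreated medians of 37.2 and 167 CPM (-1.75 ± 0.37 and -1.58 ± 0.19). Marco, a scavenger receptor of bacteria, was at 2.35 to 23.7 CPM against 9.13 to 149 CPM (-1.42 ± 0.26), and Stab1, a scavenger receptor of perivascular macrophages, at 53.7 to 153 CPM against 130 to 391 CPM (-1.08 ± 0.12). The calls of both were lost in 1 of 29 alternatives each. Of the 16 scavenger and phagocytic receptors tested, 3 were lower and 2, Mrc1 and Clec7a, higher, with a median of -0.35. Igfbp5, which binds insulin-like growth factors, went from a median of 22.4 to 4.30 CPM (-1.89 ± 0.21). Ctla2b, a cathepsin-inhibitor-like gene, went from 71.3 to 23.4 CPM (-1.78 ± 0.19), Marcksl1, an actin regulator, from 201 to 52.7 CPM (-1.60 ± 0.19), and Cgn, which encodes cingulin, from 20.0 to 7.09 CPM (-1.47 ± 0.27). Hal, histidine ammonia-lyase, was at 18.4 to 56.3 CPM with IL4. In untreated wells it went with the cell lot: it was 37.7 to 194 CPM in 19 wells of Sciencell_Feb15, 46.7 to 222 CPM in 13 wells of Sciencell_March15, and at most 0.138 CPM in the 8 wells of Sciencell_May16. Its log2 fold change within plates was -1.75 ± 0.20, and without the plate term it was -0.26.

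Genes of antigen presentation and of multinucleated cells showed single strong members. Of 8 genes of MHC class II presentation tested, Cd74 and H2-DMa were called higher. Cd74, the invariant chain, was at 2.25 to 13.5 CPM against at most 3.26 CPM (2.25 ± 0.30), and H2-DMa was at 21.7 to 99.0 CPM against 9.71 to 59.2 CPM (1.32 ± 0.24). H2-Aa itself had a median of 7.88 CPM with IL4 and 0.963 CPM without. Its untreated median was 7.92 CPM in the 14 wells that shared a pool with IL4 wells and 0.295 CPM in the 26 others. Its log2 fold change within plates of 0.38 ± 0.42 did not pass (adjusted p = 0.74), and it passed without the plate term, at 1.64. Among 16 genes of multinucleated cells and osteoclasts 4 were called higher and none lower (median 0.52). Cdh1, which encodes E-cadherin, was at 1.17 to 31.7 CPM against at most 9.45 CPM (3.43 ± 0.34), and Ocstamp, a protein of osteoclast fusion, at 1.18 to 19.6 CPM against at most 1.81 CPM (2.83 ± 0.26). Itgb3, the beta-3 integrin, rose from a median of 4.23 to 24.3 CPM (1.84 ± 0.38), and Ctsk, cathepsin K, from 1.62 to 7.41 CPM (1.43 ± 0.41, adjusted p = 0.021). The call of Itgb3 was lost in 1 and that of Ctsk in 5 alternatives. The inhibitory Fc receptor Fcgr2b was the only one of 16 Fc and complement genes called, at 491 to 1301 CPM against 89.7 to 573 CPM (1.05 ± 0.16), close to the fold change required, and its call was lost in 5 of 29 alternatives.

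Metabolic lists gave few calls. None of 17 glycolysis genes (median 0.13) and none of 18 genes of cholesterol synthesis (median 0.05) was called, and of 21 PPAR and fatty acid genes only Abcg1 was, a cholesterol exporter at 57.1 to 136 CPM with IL4 and 14.7 to 90.9 CPM without (1.31 ± 0.21). The 22 proliferation genes gave no call, but 21 had a log2 fold change above 0 and the median was 0.65. That median was 1.35, 0.92 and 0.97 in the 3 pools where IL4 wells were inner wells, and -0.55 in the second pool of plate MG160831, where the IL4 wells were outer and the untreated wells inner ones. With inner wells alone it was 0.88, and 2 of the 22, Ccna2 and Rrm2, named to complete the count, were called higher (1.27 and 1.06). Top2a, a topoisomerase of dividing cells, was at 60.6 to 640 CPM with IL4 and at 7.31 to 822 CPM without (0.46 ± 0.43). With inner wells alone, 194 genes were called higher and 84 lower, of which 106 and 38 were also called with all wells. On plate MG160831 the inner IL4 wells and the inner untreated wells were in different pools. There IL4 and pool cannot be told apart in the fit with inner wells alone. Plate MG160901 had no inner untreated well to set beside its IL4 wells.

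**Figure D3:**
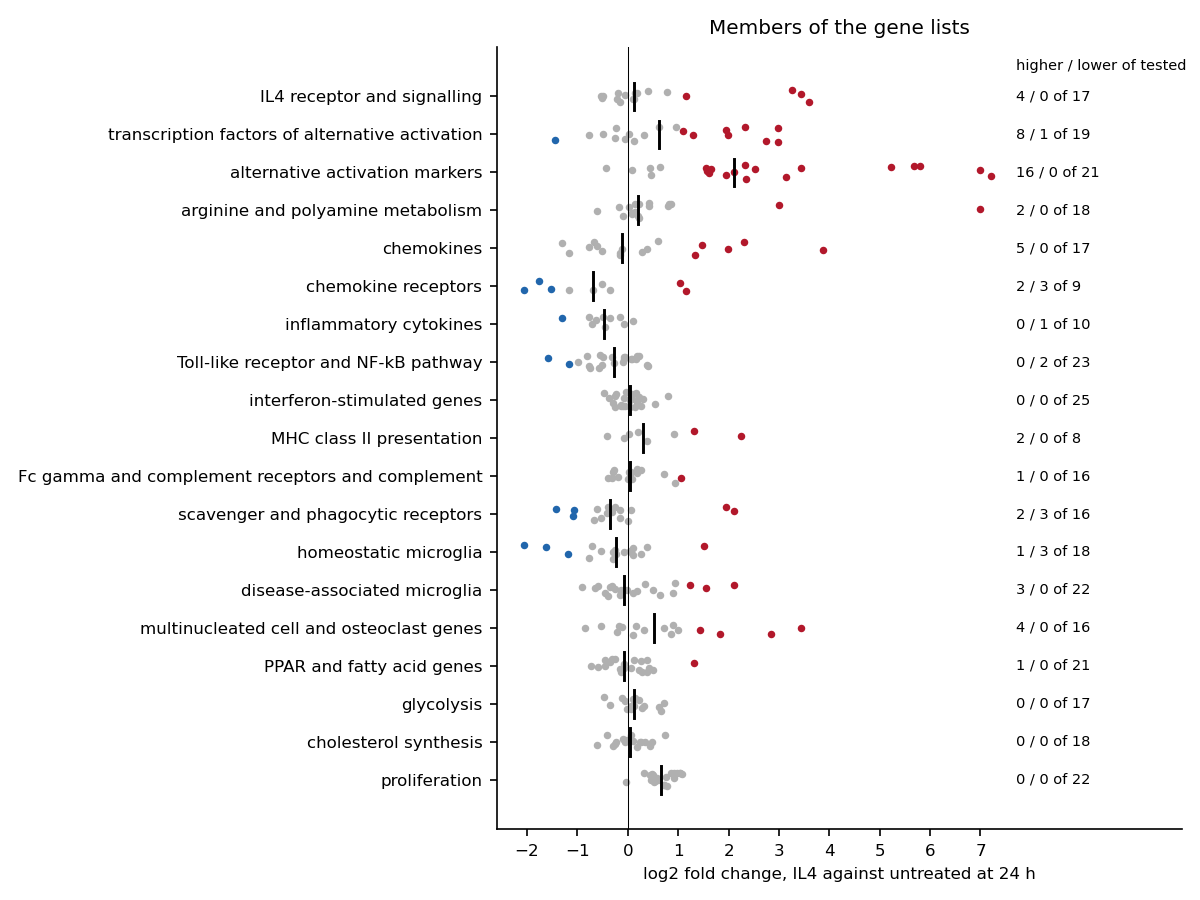
Log2 fold change of IL4 against untreated cultures at 24 h for the tested members of 19 gene lists, 1 point per gene. Red and blue points were called higher and lower, grey points were not called, black bars are list medians, and the counts stand at the right; 16 of 21 alternative activation markers were called higher, and 0 of 25 interferon-stimulated genes.

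Markers of other cells moved at few genes. The 10 dendritic cell markers summed to between 516 and 1393 CPM with IL4 and between 47.4 and 705 CPM without. Most of this was Itgax, named here after its values were seen, at 446 to 1342 CPM against 14.8 to 703 CPM, with a log2 fold change of 0.94 ± 0.19 that was below the size required, while Flt3, Xcr1 and Clec9a stayed at or under 1.98 CPM with IL4 and 4.05 CPM without. Of the 5 dendritic cell markers tested Batf3 (2.97) was called higher, and all 5 had a log2 fold change above 0. The 10 monocyte markers summed to between 101 and 302 CPM against 21.5 and 114 CPM. Of 4 tested, Chil3 (2.35) and S100a4 were called higher. S100a4, a calcium-binding protein, was at 58.4 to 270 CPM against 6.79 to 87.2 CPM (1.53 ± 0.26), and Ly6c2 and Ccr2 were at most 3.62 CPM with IL4. The 10 markers of perivascular macrophages summed to between 458 and 1016 CPM with IL4 and between 339 and 774 CPM without. Of 7 tested, Mrc1 and Clec10a were called higher and Stab1 lower. Fibroblast and pericyte markers summed to between 33.1 and 871 CPM with IL4 and 2.13 and 1294 CPM without, and of 6 tested only Postn was called (1.19 ± 0.30, adjusted p = 0.0075), a call lost in 3 of 29 alternatives. The part of other cells in the results was not tested.

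The study grouped genes into modules by their behaviour over these cultures, IL4 wells included, so their direction here is not independent evidence. Of the 31 genes of the module named SA_salmon, 25 were tested and all 25 were called higher, between 1.16 and 7.21, with a median of 2.97. No other module in the table used here had more than 5 genes called higher. Of the 159 genes called higher 68 were in any module, and of the 65 called lower 32 were, none of them in SA_salmon. The study drew its module genes from those that varied or were differentially expressed over its conditions, which favours called genes. The share of all genes tested that were in any module is not given here, so these counts are description only.

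Among 39 conditions of a single stimulus at 24 h, untreated included, IL4 gave the highest mean level of 9 of the 15 genes with the largest rise. The 15 were picked by their fold with IL4, which favours a high rank. For Arg1, Retnla, Mgl2, Tmem26, Cldn11, Rnase2a and Nfil3 the next highest was IL13. Arg1 averaged 595 ± 222 CPM (SD, n = 11) with IL4, 153 ± 62.1 CPM with IL13 (n = 9) and 14.7 ± 6.28 CPM with the higher dose of LPS (n = 18), the highest of the others. Other risen genes were not highest with IL4. Socs1 reached 971 ± 287 CPM with interferon gamma (n = 9) against 83.9 ± 30.6 CPM with IL4, and Socs2 reached 242 ± 163 CPM with GMCSF (n = 8) against 63.3 ± 19.8 CPM. Slc7a2 reached 1043 ± 358 CPM and Ccl7 157 ± 89.9 CPM with the higher dose of LPS (n = 18), against 550 ± 101 and 79.5 ± 46.1 CPM with IL4. IL4 gave the lowest mean of Tlr2 (9.35 ± 4.95 CPM), Marco (14.7 ± 5.91 CPM), Tnf (24.8 ± 10.3 CPM) and Il4ra (12.5 ± 2.91 CPM), but the next lowest conditions were near: 13.1 CPM for Tlr2 with IL13, 15.5 CPM for Marco with TGFb, 24.8 CPM for Tnf with MPP and 13.6 CPM for Il4ra with MPP. These are levels over all plates, with no test.

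IL13 was compared with IL4 directly, in a fit that shared the untreated wells. The first pool of plate MG160831 held 3 IL4 wells and no IL13 well. In the second pool of that plate the IL4 wells were outer wells, and of the IL13 wells 2 were inner and 1 outer. Plate was a factor in this fit and pool was not, and the part of pool and well position in these differences was not tested. IL4 was above IL13 in 11 of 11790 genes (0.0933%) and below it in 1 (0.00848%). All 15 genes with the largest rise with IL4 had a positive fold with IL13 and a smaller one, with a median of 2.61 against 3.81, and 6 of these differences were called. The 15 were picked by their fold with IL4, which by itself favours a smaller fold with IL13. Retnla was at 37.3 to 137 CPM with IL13 (median 60.9), below each IL4 culture, and the difference between the cytokines was 3.25 ± 0.35 on the log2 scale (adjusted p = 8.43e-10). Mgl2 was at 3.21 to 24.2 CPM with IL13 (2.87 ± 0.31, adjusted p = 8.43e-10), and Cldn11 at 0.294 to 23.9 CPM (2.31 ± 0.41, adjusted p = 0.000486). Rnase2a was at 2.63 to 18.1 CPM (2.09 ± 0.24, adjusted p = 7.54e-09), and Arg1 at 49.8 to 236 CPM (1.93 ± 0.30, adjusted p = 2.26e-05). Among the feedback inhibitors Cish differed by 1.71 ± 0.28 and Socs1 by 1.34 ± 0.31 (adjusted p = 6.96e-05 and 0.035), and Socs2 by 1.04, which did not pass (adjusted p = 0.77). The call of Socs1 was lost in 4 of 9 alternatives. Chil3 was at most 2.78 CPM with IL13 (1.59 ± 0.26). The other 3 called were Msx3 (3.27), Gm15856 (2.30) and Pla2g4d (2.18), whose means were below 20 CPM and which are named to complete the count.

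Cx3cr1 was the 1 gene lower with IL4 than with IL13. It was at 161 to 315 CPM with IL13 (median 262), and the difference was -1.45 ± 0.27 (adjusted p = 0.00098); against untreated wells the log2 fold change was -0.63 with IL13. Differences that did not pass included Slc7a2 (0.52, adjusted p = 0.52), Mrc1 (0.35, adjusted p = 0.999) and Clec7a (0.15, adjusted p = 0.999), which stood at 234 to 452, 174 to 340 and 258 to 465 CPM with IL13. All 12 genes with the largest fall were also lower with IL13 than in untreated wells, with a median of -1.15 against -1.68. They too were picked by their fold with IL4, which favours a smaller fall with IL13.

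**Figure D4:**
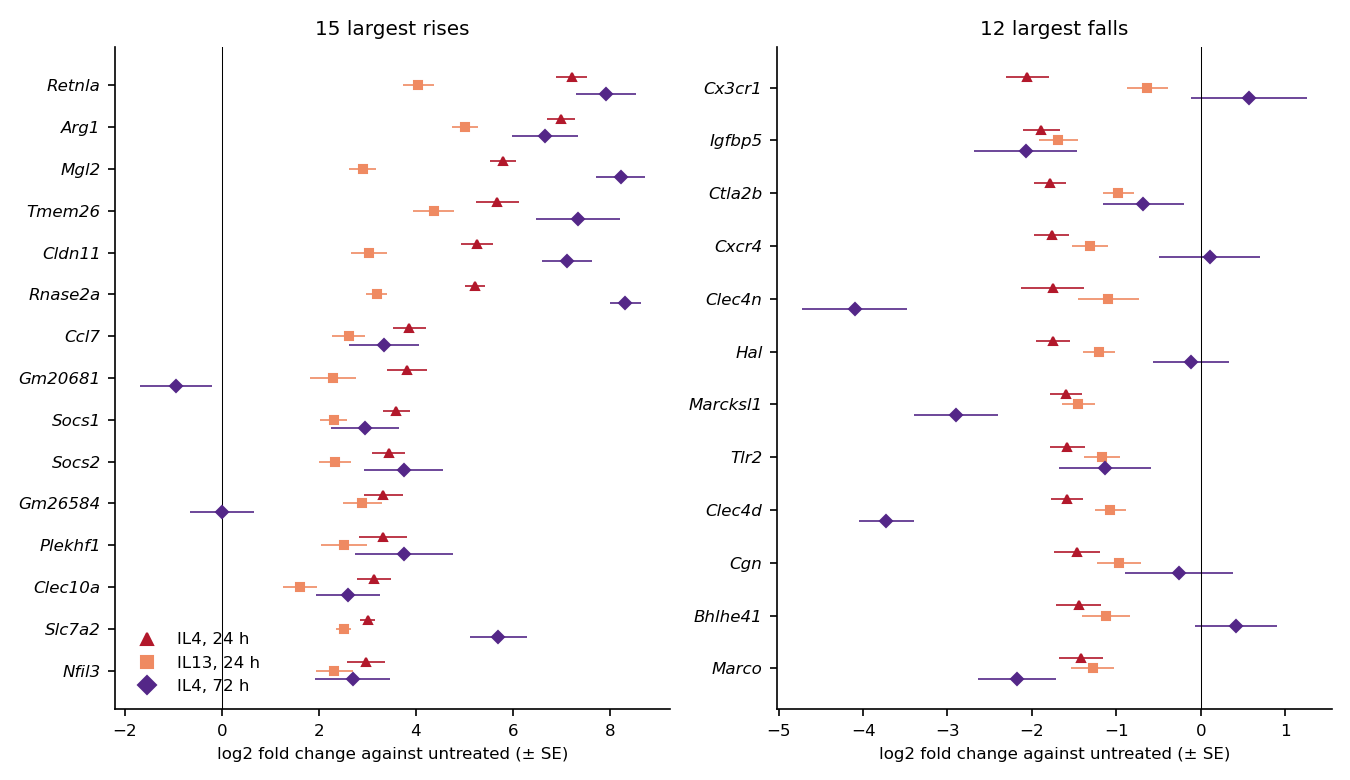
Log2 fold change against untreated cultures (± SE) of the 15 genes that rose most and the 12 that fell most with IL4 at 24 h, for IL4 at 24 h (red triangles), IL13 at 24 h (orange squares) and IL4 at 72 h (purple diamonds), each in the fit of its own comparison. The IL13 value lies between 0 and the IL4 value for all 27 genes, which were picked by their fold with IL4. At 72 h Mgl2 and Rnase2a lie above 8, and Cx3cr1, Cxcr4 and Bhlhe41 lie above 0.

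The 72 h cultures ask whether the response at 24 h was complete, but their layout limits the answer. All 3 lay in inner wells of plate MGm160930A with cells of the lot Sciencell_May16, which held no IL4 well at 24 h, so time and lot cannot be told apart. The 4 untreated wells on that plate were all outer wells. At 72 h untreated levels differed between inner and outer wells, but no plate held untreated wells of both kinds. All 10 inner ones were on plate MGm160930B, so well position and plate cannot be told apart. Ube2c, an enzyme of mitotic exit, was at 96.7 to 158 CPM in 10 inner untreated wells of another plate, at 1.38 to 3.24 CPM in the 4 outer wells beside IL4, and at most 3.41 CPM in 11 outer wells of other plates. The difference of the IL4 effects was called higher at 72 h in 264 of 12221 genes (2.16%) and lower in 157 (1.28%). Without IL4 72 h replicate 1 the total fell from 421 to 278. With inner wells only and no plate term 357 were higher and 1636 lower, so the direction of the balance turned. At 72 h this fit sets IL4 wells of plate MGm160930A against untreated wells of plate MGm160930B, so IL4 and plate cannot be told apart.

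The difference passed for 26 named genes and was positive in 19 of them and negative in 7. Of the 26, 13 also passed in the same direction with inner wells only. Chil3 was at 1045, 1055 and 1216 CPM with IL4 at 72 h, against 3.49 to 8.26 CPM in the 4 untreated wells of the plate and 0 in all 10 inner untreated wells, and the difference of effects was 5.02 (adjusted p = 1.86e-16). F7, which encodes coagulation factor VII, was at 72.7, 76.0 and 94.4 CPM against at most 0.862 CPM in any untreated well at 72 h, and at most 6.95 CPM with IL4 at 24 h (5.21, adjusted p = 7.09e-14). With inner wells only the differences were 7.53 for Chil3 and 4.76 for F7. Ube2c, by contrast, was at 90.5 to 203 CPM with IL4, near the inner untreated wells, and its difference of 4.86 became -0.69 with inner wells only. Nes and 1110051M20Rik had differences of 4.92 and 5.12, which became 2.11 and 2.12 and no longer passed. The difference of S100a4 went from 3.35 to 1.24 and did not pass either. Slc7a2 had a difference of 2.69, but with IL4 it was at 484 to 564 CPM at 72 h and 371 to 678 CPM at 24 h. In untreated wells Slc7a2 was at 7.29 to 15.4 CPM on the IL4 plate at 72 h and at 9.80 to 103 CPM at 24 h.

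Retnla reached 4721, 4806 and 5819 CPM at 72 h, and Arg1 1719, 1758 and 2152 CPM. Both were above each 24 h culture, but the untreated wells of the plate were also higher than most (13.2 to 31.01 and 12.7 to 24.1 CPM), and the effects did not pass as different (0.70, adjusted p = 0.68, and -0.33, adjusted p = 0.89). In the 10 inner untreated wells Retnla was listed at 0 and Arg1 was at 0.594 to 5.95 CPM. With inner wells only the difference of Retnla was 3.41 and passed (adjusted p = 0.000198), and that of Arg1 was 1.04 and did not (adjusted p = 0.20). In that fit the untreated wells at 72 h are all on another plate than the IL4 wells. Mgl2 reached 402 to 640 CPM (difference 2.43, adjusted p = 0.0053) and Rnase2a 419 to 511 CPM (3.10, adjusted p = 3.06e-09). Pdcd1lg2 was at 13.6 to 44.7 CPM at 72 h (2.43, adjusted p = 7.1e-05), and all 3 genes also passed with inner wells only (2.14, 3.47 and 2.07). Ccl17 and Ccl22 were listed at 0 in all 3 cultures. Other named differences were no simpler. Gm20681 and Gm26584 were listed at 0 in all 3 IL4 cultures at 72 h, and Gm26584 was at most 0.114 CPM in untreated wells of that lot at 24 h. Hal had a positive difference of 1.64 (adjusted p = 0.0498), although it was also listed at 0 in these 3 cultures. That difference became -0.16 with inner wells only. Panx1 (difference -3.53) was at 0.336 to 4.32 CPM with IL4 and at 22.3 to 60.6 CPM in the outer untreated wells, but at 3.06 to 13.5 CPM in inner ones. 1700037C18Rik and Sbk2 differed by -4.48 and -3.18, with adjusted p of 0.0254 and 0.0498. Clec4d was at 39.1 to 61.6 CPM with IL4 at 72 h, below the inner untreated wells (178 to 295 CPM) and further below the outer ones beside it (483 to 860 CPM). Cx3cr1, at 31.97 to 46.9 CPM, was below the inner untreated wells (120 to 265 CPM) and level with the outer ones beside it (10.3 to 44.7 CPM). Its difference of 2.63 (adjusted p = 0.038) became 0.01 with inner wells only, and the call was lost in 7 of 13 alternatives, each of the 3 that left out an IL4 culture among them.

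**Figure D5:**
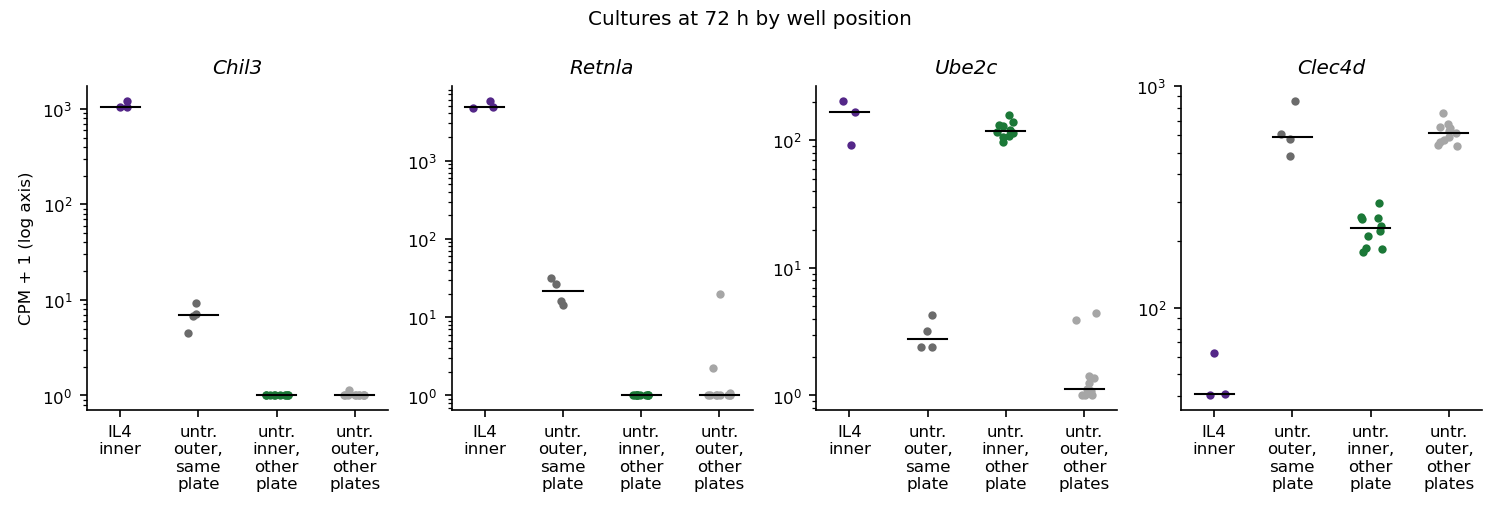
CPM + 1 on a log axis of 4 genes in the cultures at 72 h: 3 IL4 wells (inner), the 4 untreated wells of the same plate (outer), 10 inner untreated wells of another plate and 11 outer untreated wells of other plates; bars are medians. Chil3 and Retnla are high only in the IL4 wells, whereas Ube2c is as high in inner untreated wells as with IL4, and Clec4d is highest in outer untreated wells.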

How the data were processed

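RNA of single culture wells was sequenced from the 3′ end. The deposited table holds CPM, which the authors made by quantifying reads with salmon against Ensembl 81 transcripts, summing over genes and dividing by mapped reads (called TPM by the study, but with no division by length described); the authors had removed cultures of low depth or few genes. The submitters' processing notes name Salmon 0.7.1 and build mm8. The columns of 446 cultures were used. CPM are no counts: 73.2% to 85.1% of low values were within 0.1 of a whole read in the untreated cultures at 24 h, so no count test was run. Groups came from the treatment and duration labels, plate, pool, lot and well from the table's header. Genes above 5 CPM in at least 4 samples of a fit were tested on log2(CPM + 1) with limma 3.58.1 in R 4.3.3 (trend, plate as a fixed factor, 2-sided, Benjamini-Hochberg adjustment), so folds of low genes are understated. The call needed an adjusted p under 0.05 and a log2 fold change of at least 1 in size. IL4 and IL13 were compared in a fit with the untreated wells, and the 72 h effect as the difference of both effects. Named genes were the 15 largest rises and 12 largest falls with a mean of at least 20 CPM in the higher group, up to 4 called genes of each list by size (or the first 2 tested), 24 genes named in any case, and up to 5 differences each way against IL13 and between times. The members and lists were chosen with earlier results of these data known. Alternatives covered the plate term, pseudocount, filter, scaling, call rule, wells, plates and single cultures. The fit was tested on simulated data. Levels are per gene and not per length, and sequences are from RefSeq (GRCm38.p6).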

Additional observations from a re-analysis of the deposited data

Results flagged for a closer look

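A test of the difference between the effects of IL4 and IL13 at 24 h passed for 12 genes, 9 of them named by the rule. On the log2 scale these 9 differed by 3.25 (Retnla), 2.87 (Mgl2), 2.31 (Cldn11), 2.09 (Rnase2a), 1.93 (Arg1), 1.71 (Cish), 1.59 (Chil3), 1.34 (Socs1) and -1.45 (Cx3cr1). The other 3, of low level, differed by 3.27 (Msx3), 2.30 (Gm15856) and 2.18 (Pla2g4d). Pool was not a factor in this fit, and the first pool of plate MG160831 held IL4 wells but no IL13 well. For Cldn11, 1 IL13 culture stood apart from the other 8 at 0.294 CPM; this check of 16 groups marks about 1 group in 20 by chance.

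A test of the difference between the IL4 effects at 72 h and 24 h passed for 26 named genes. The difference was 5.21 for F7, 5.12 for 1110051M20Rik, 5.02 for Chil3, 4.92 for Nes, 4.86 for Ube2c and 4.35 for Top2a. It was 3.70 for Il7r, 3.35 for S100a4, 3.17 for Mki67, 3.10 for Rnase2a, 2.89 for Itgb3, 2.69 for Slc7a2 and 2.63 for Cx3cr1. Smaller positive differences were 2.43 for both Mgl2 and Pdcd1lg2, 1.99 for Ocstamp, 1.87 for Bhlhe41, 1.68 for Cish and 1.64 for Hal. A positive difference need not be a rise: Cx3cr1, Bhlhe41 and Hal were called lower at 24 h, and Hal was listed at 0 in all 3 IL4 cultures at 72 h. The difference was -4.75 for Gm20681, -4.48 for 1700037C18Rik, -3.53 for Panx1, -3.33 for Gm26584, -3.18 for Sbk2, -2.35 for Clec4n and -2.14 for Clec4d. Time and cell lot cannot be told apart in these differences. With inner wells only, 13 of the 26 passed in the same direction: F7, Chil3, Rnase2a, Mgl2, Pdcd1lg2, Slc7a2, Cish, Ocstamp, Gm20681, Gm26584, 1700037C18Rik, Panx1 and Clec4d. In that fit the IL4 and untreated wells at 72 h are on different plates, so IL4 and plate cannot be told apart.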

How the results depend on the processing

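The count of genes changed by IL4 at 24 h was 224. It was 547 without the plate term, 124 with a pseudocount of 5 CPM, 640 with no minimum fold change and 88 by the exact rank-sum test within plates. It stayed within 1.5 times in the other alternatives, and leaving out 1 IL4 culture gave 184 to 234. Leaving out pool MGm160926A2, chosen after seeing the data, gave 211. Against IL13, 12 genes became 7 with a mean of at least 5 CPM required. For 72 h against 24 h, 421 genes became 262 with plate as a random block. The balance of 264 higher and 157 lower turned without the plate term (444 genes, 170 and 274). It turned also with inner wells only and no plate term (1993 genes, 357 and 1636), where Ube2c changed sign to -0.69 and Hal to -0.16 (Hal was at -0.000511 without the plate term). Leaving out 1 IL4 culture at 72 h gave 278 to 331; these last alternatives were chosen after seeing the data. The cause of these changes was not tested. Of 92 named genes tested at 24 h, 67 had the same direction and call in all alternatives, 20 lost the call at least once, 5 gained it (H2-Aa, Ifit1, Il1b, Nes and Pparg, all without the plate term) and 0 called genes reversed. Against IL13, 14 of 16 genes kept direction and call and 2 lost the call, Chil3 with a pseudocount of 5 CPM and Socs1 in 4 of 9 alternatives. For 72 h against 24 h, 10 of 28 genes kept both, 17 lost the call at least once and Retnla gained it in 2 (a pseudocount of 5 CPM, inner wells only). No paired analysis was possible because the labels give no replicate numbers that link wells across groups. With few IL4 wells per plate and depths from 1.09 M reads, genes near 1 CPM could not be compared.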

Other observations

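Chil3, which was listed at 0 in all 40 untreated wells at 24 h, averaged 3.48 ± 3.41 CPM (SD, n = 6) with valproic acid and 5.35 ± 2.78 CPM (n = 11) with IL4 at that time. Retnla averaged 12.2 ± 12.8 CPM with valproic acid (n = 6). Some of these valproic acid wells lay on the plate of the IL4 72 h cultures, where Chil3 was at least 1045 CPM with IL4 and 3.49 to 8.26 CPM in untreated wells. The part of the plate in these levels was not tested.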
